A study of Mus musculus with 20 samples.

Results

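Cell cycle and DNA replication genes are described here as a set of 36 genes, out of 49315 in the expression table, that cover entry into the cycle, the copying of DNA and mitosis. The set was given as a list of gene names, and all 36 were found by symbol. They were measured by RNA sequencing of polyadenylated RNA in liver from each of 20 DIO NASH mice, a model in which diet-fed obese mice develop non-alcoholic steatohepatitis, all kept on the AMLN diet, which is used to bring on fatty, inflamed and scarred liver. The vehicle group was 10 mice given HEC at 1%, and the treated group was 10 mice given S217879 at 30 mg/kg by mouth each day, both over 8 weeks. S217879 disrupts the binding of NRF2, a transcription factor of the oxidative stress response, to KEAP1, the adaptor that directs NRF2 to degradation. Each library came from a separately numbered mouse, so the spread within a group is the spread between animals. No mice on a normal diet and no untreated mice were analysed here, and the labels give no strain, sex or age.

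Most hepatocytes of an adult liver rest outside the cycle, and they re-enter it after injury or loss of tissue. Growth signals raise D-type cyclins, which with CDK4 and CDK6 phosphorylate the retinoblastoma protein and so release E2F transcription factors. E2F factors in turn drive genes for cyclin E, the MCM helicase, nucleotide synthesis and, with later factors, mitosis, while CDK inhibitors such as p21 and p27 hold the kinases back. Many mitotic genes are held silent in resting cells by the DREAM complex, which reads a short promoter element called the cell cycle homology region.

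Promoters of members are shown first because 2 of these control elements can be read in their letters. The 250 bases before the RefSeq transcription start (build GRCm38.p6) are given 5′ to 3′ on the gene's strand, for the pair of helicase genes with the largest fall and for 3 mitotic genes that fell. Capitals mark E2F sites, the cell cycle homology region and CCAAT boxes on either strand; ATTGG is CCAAT on the other strand.
Mcm5 (chr8:75109259-75109508, plus strand): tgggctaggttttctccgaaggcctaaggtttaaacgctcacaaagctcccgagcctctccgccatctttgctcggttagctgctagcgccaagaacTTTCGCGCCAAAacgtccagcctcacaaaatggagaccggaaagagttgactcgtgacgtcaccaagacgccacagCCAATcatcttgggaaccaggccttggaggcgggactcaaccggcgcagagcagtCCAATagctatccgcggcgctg
Mcm6 (chr1:128359706-128359955, minus strand): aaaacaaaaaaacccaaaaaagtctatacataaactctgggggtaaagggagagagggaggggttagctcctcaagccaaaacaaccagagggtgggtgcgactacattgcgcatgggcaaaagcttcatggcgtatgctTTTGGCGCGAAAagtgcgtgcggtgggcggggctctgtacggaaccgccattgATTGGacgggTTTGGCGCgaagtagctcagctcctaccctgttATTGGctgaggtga
Ccnb2 (chr9:70421555-70421804, minus strand): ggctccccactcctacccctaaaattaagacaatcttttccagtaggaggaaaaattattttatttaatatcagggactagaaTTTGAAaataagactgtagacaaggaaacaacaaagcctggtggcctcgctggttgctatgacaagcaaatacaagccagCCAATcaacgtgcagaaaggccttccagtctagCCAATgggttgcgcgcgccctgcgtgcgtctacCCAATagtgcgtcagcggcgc
Cdk1 (chr10:69352913-69353162, minus strand): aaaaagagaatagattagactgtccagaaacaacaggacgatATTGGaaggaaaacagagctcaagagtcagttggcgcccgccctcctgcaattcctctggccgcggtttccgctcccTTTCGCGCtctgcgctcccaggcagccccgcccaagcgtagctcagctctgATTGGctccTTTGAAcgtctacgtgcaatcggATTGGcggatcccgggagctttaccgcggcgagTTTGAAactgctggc
Mki67 (chr7:135716380-135716629, minus strand): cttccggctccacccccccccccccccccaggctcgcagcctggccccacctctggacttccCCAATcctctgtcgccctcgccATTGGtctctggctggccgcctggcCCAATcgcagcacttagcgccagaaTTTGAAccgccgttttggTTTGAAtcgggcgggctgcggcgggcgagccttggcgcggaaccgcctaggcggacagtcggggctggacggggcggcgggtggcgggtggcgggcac

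In Mcm5 and in Mcm6 a pair of E2F sites on opposite strands overlap, so that they read as 1 longer run of capitals. Over the whole window, from 250 bases before to 50 after the start, 28 of the 36 members were matched in the RefSeq table. The E2F site was searched as TTTCCCGC, TTTCGCGC, TTTGGCGC or TTTGCCGC on both strands. It was found in 6 of the 28 members, namely Cdk2, Mcm3, Mcm5, Mcm6, Mcm7 and Cdk1, against 2.60% of all 27025 genes with a window of that length. All 6 were among the 17 matched members whose level was lower under S217879, and none was among the 11 others. Those others include E2f1, whose window (chr2:154569377-154569676, minus strand) lies inside the annotated gene. The 5′ end of that gene is at 154569892, so the sequence before it was not searched. The same holds for Cdk6, whose window (chr5:3343643-3343942, plus strand) lies inside a gene with its 5′ end at 3341485. It also holds for the 2 windows of Cdkn2c, a gene with its 5′ end at 109667189. Among the lower members the 2 windows of Mcm7 lie inside the gene too, whose 5′ end is at 138172422. The cell cycle homology region, TTTGAA, was in 8 of the 28 members (Mcm2, Ccnb2, Cdk1, Mki67, Top2a, Aurka, Cdc20 and Ube2c) against 20.2% of all genes, and 7 of these 8 were lower, with Aurka the exception. In Ccnb2 a further TTTGAA begins at base 5 after the start, past the printed bases. CCAAT was in 21 of the 28, against 41.1% of all genes. The antioxidant response element that NRF2 binds, TGACNNNGC, was in 8 of the 28 members against 14.0% of all genes, 4 of them among the lower members and 4 among the others. These matches describe letters in a window, were not tested against expression, and do not show that a factor was bound.

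The level of each gene is given as TPM, a length-corrected share of the library, which divides reads by gene length and by the library total. Every library summed to 1000000 TPM, so sequencing depth is unknown and no interval for counting error can be given. Between 24659 and 27744 genes were above 0 in each library. The hepatocyte markers were abundant in every liver, their summed level running from 28878 to 66364 TPM in vehicle and from 37203 to 56422 TPM in S217879. Transcripts of 4 genes of ribosomal RNA type took 30.0% ± 13.6 of the vehicle libraries and 24.0% ± 6.78 of the S217879 libraries (SD, n = 10 each), with 58.2% in vehicle replicate 6 and 50.7% in vehicle replicate 7. A large share for these genes lowers every other gene in that library, and vehicle replicate 6 held the lowest vehicle value of 22 of the 36 members. Values are therefore also given after median-of-ratios scaling, which sets each library to the level of its typical gene. It moved the median log2 difference of all genes from -0.12 to 0.02, a shift of 0.14. In bulk liver RNA, fewer cells of a type and less RNA per cell cannot be told apart.

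S217879 livers held less RNA for most of the set, and no member was called higher. A gene was called where its adjusted p was under 0.05 over the 13401 genes that averaged 1 TPM or more. Of the 33 members at that level, 20 were lower, against 23.5% of all genes tested, and 0 were higher, against 6.07%. The other 13 were not called, and 12 of them had a negative difference. At an unadjusted limma p under 0.05 the counts were 25 lower and 0 higher. The share of all genes at that unadjusted threshold was not computed. An exact Wilcoxon test with adjustment over all genes gave 20 members lower and 0 higher. By that test 3234 of the 13401 genes were lower and 833 higher. The remaining 3 members, Ccnb1, Aurkb and Bub1, averaged below 1 TPM and were read from the same fit with a minimum of 0.1 TPM, where all 3 were lower, against 22.0% of its genes (4.69% were higher). The median log2 difference of the 33 members was -0.44, against -0.12 over all genes tested. In all, 3151 genes were lower and 813 higher, so that 79.5% of the called genes were lower, but after scaling 3042 were lower (22.7%) and 4123 higher (30.8%), or 42.5% lower. The same scaling left 21 of the 33 members lower and 1 higher, Ccnd3, with a member median of -0.31 against 0.02. Without vehicle replicates 6 and 7 together, 31 of the 33 were lower, where 54.5% of all genes were lower and 5.52% higher, and with scaling as well 22 were lower and 1 higher, where 21.1% of all genes were lower and 26.8% higher. After rescaling the libraries without the 4 rRNA-type genes, 32 members were lower, where 64.0% of all genes were lower and 7.54% higher. In both of these settings on unscaled values the share of lower genes over the whole table was also far above that of the deposited values.

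**Figure D1:**
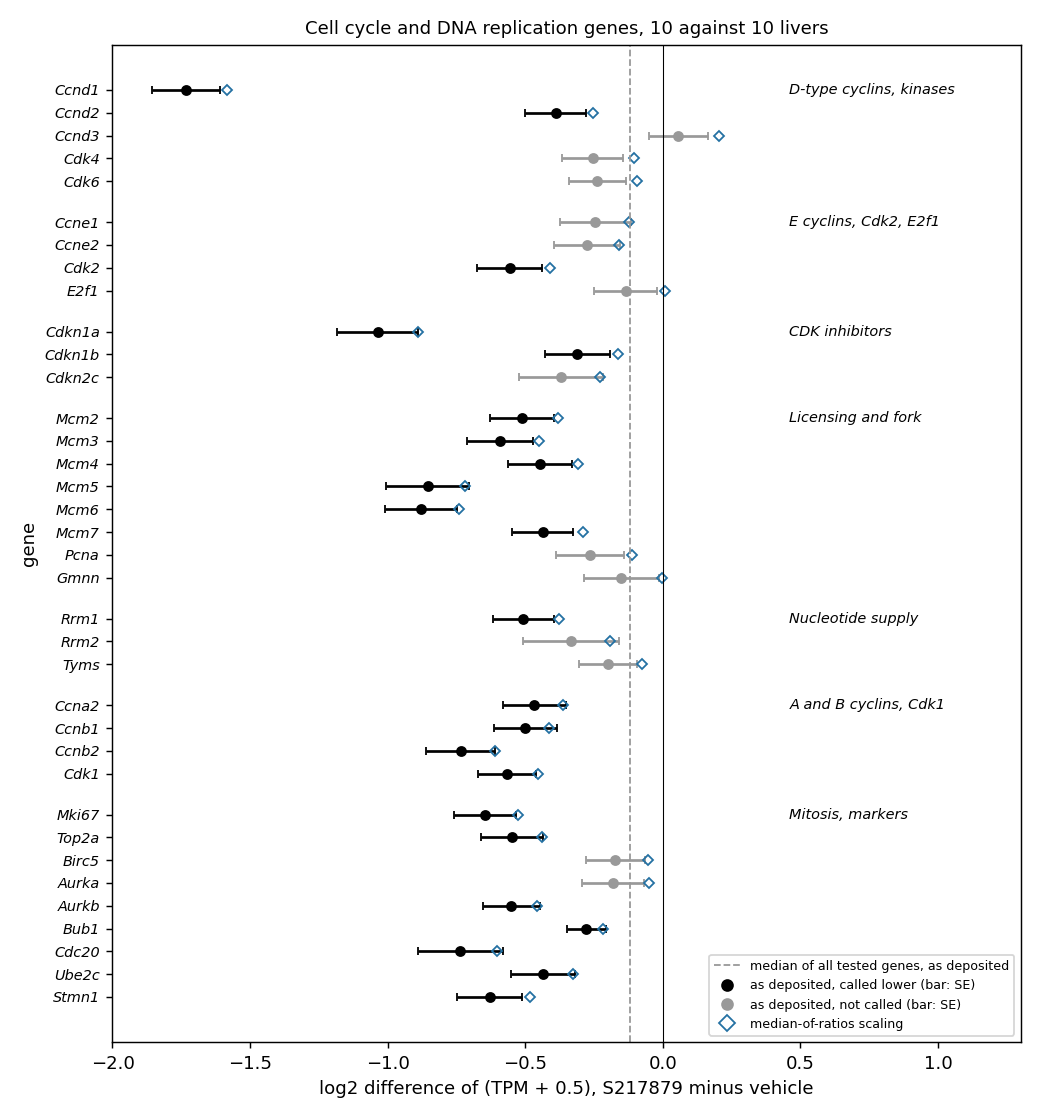
Log2 difference of (TPM + 0.5), S217879 minus vehicle, for the 36 members in groups by role, with 10 livers per group. Circles with bars are the deposited values with their standard error, black where called lower and grey where not called, diamonds are the values after median-of-ratios scaling, and the dashed line is the median of all tested genes; Ccnd1 lies at -1.73, and Ccnd3 is the one circle right of 0.

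Of the D-type cyclins, Ccnd1 and Ccnd2 were lower and Ccnd3 was not called. Ccnd1 (chr7:144929931-144939925, minus strand), which encodes cyclin D1, ran from 23.8 TPM through a median of 37.1 to 51.7 in vehicle, and from 8.02 through 11.1 to 14.8 in S217879. All 10 treated livers were below the lowest vehicle liver, and it was the only member whose groups did not overlap, as was the case for 1.89% of all genes tested in that direction and 1.84% in the other. Its mean was 37.7 ± 7.48 TPM in vehicle and 10.97 ± 2.15 with S217879 (SD over 10 livers each), a log2 difference of -1.73 ± 0.12 (SE; adjusted p = 1.31e-14), and it ranked 30 among all 13401 genes by size of fall. After scaling the difference was -1.58. Ccnd1 shares 1100 of its 4709 exon bases (23.4%) with LTO1 on the opposite strand, and no source used here states whether the counting used strand. LTO1 itself was 4.47 ± 0.97 TPM in vehicle and 4.30 ± 0.42 in S217879 (10 livers per group, ± SD; adjusted p = 0.878).

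Ccnd2, the cyclin D2 gene, is another of the partners of CDK4 and CDK6. It ran from 3.01 through a median of 4.60 to 5.53 TPM in vehicle and from 2.36 through 3.19 to 4.18 in S217879. The groups overlapped, with all 10 treated livers below the vehicle median, and the log2 difference was -0.39 ± 0.11 (SE; adjusted p = 0.00592). Ccnd3, encoding cyclin D3, ran from 6.33 through 9.76 to 10.5 TPM in vehicle and from 7.46 through 9.56 to 10.5 in S217879. Its 2 groups covered nearly the same range, and the difference of 0.06 ± 0.11 was not called (SE; adjusted p = 0.737). The direction of Ccnd3 depended on scale: after median-of-ratios scaling it was higher by 0.20 (adjusted p = 0.00147), and after rescaling without the rRNA-type genes the difference was -0.08.

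**Figure D2:**
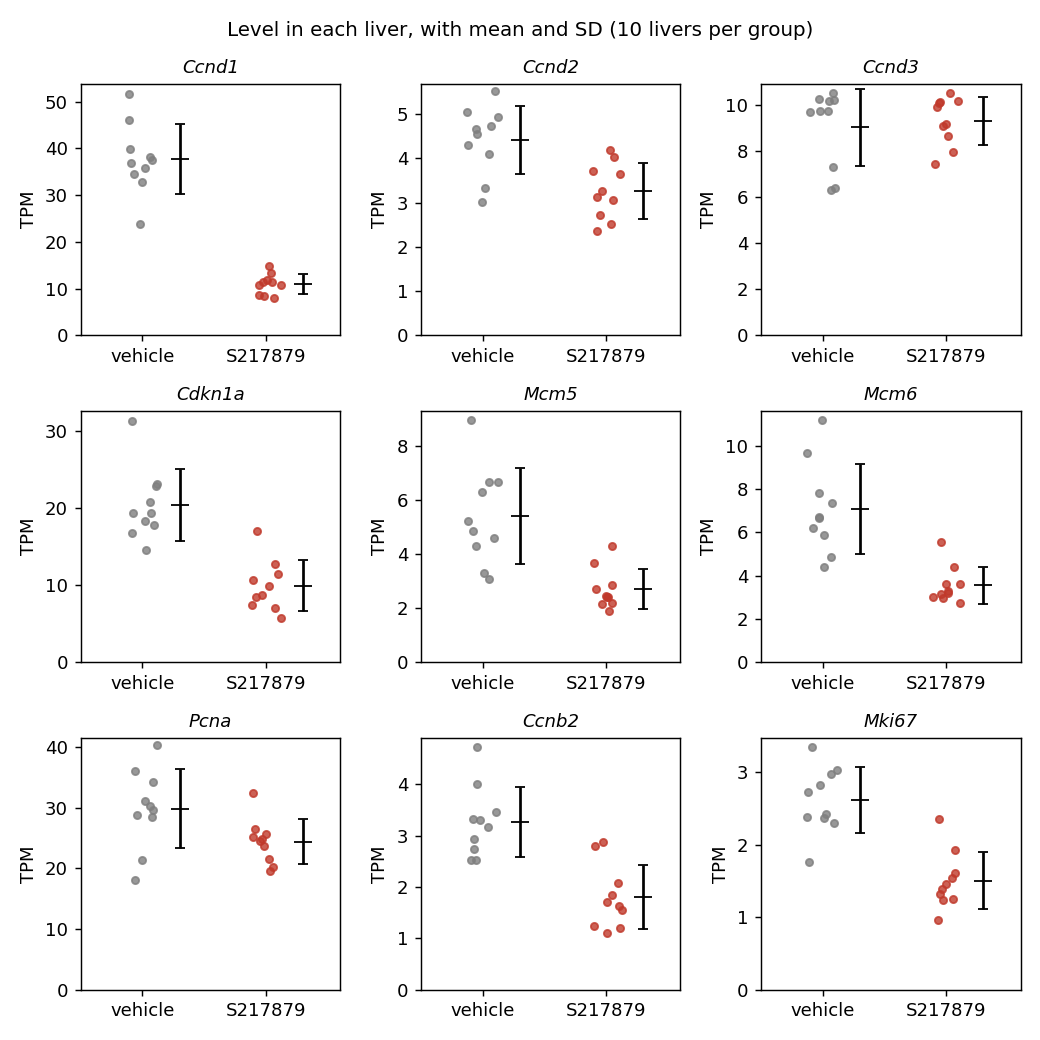
Level in TPM of 9 members in each liver, with a point per liver (grey vehicle, red S217879) and the mean and SD beside it, 10 livers per group. Ccnd1 is the one panel in which the groups are apart; in Ccnd3 and Pcna they overlap over most of their range.

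Since a ratio within a library does not depend on its scale, the make-up of the D-type cyclins was also described. Cyclin D1 made up 73.5% ± 2.55 of the summed TPM of the 3 genes in vehicle, between 70.1% and 77.6%, and 46.3% ± 4.09 in S217879, between 39.0% and 51.8% (SD, n = 10 each). The share held by Ccnd3 was 17.8% ± 1.97 in vehicle and 40.0% ± 4.97 in S217879. Ccnd2 held 8.70% ± 1.05 and 13.8% ± 1.69. The shares of Ccnd1 in the 2 groups did not overlap, and in vehicle its mean share without replicates 6 and 7 was 73.3%.

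**Figure D3:**
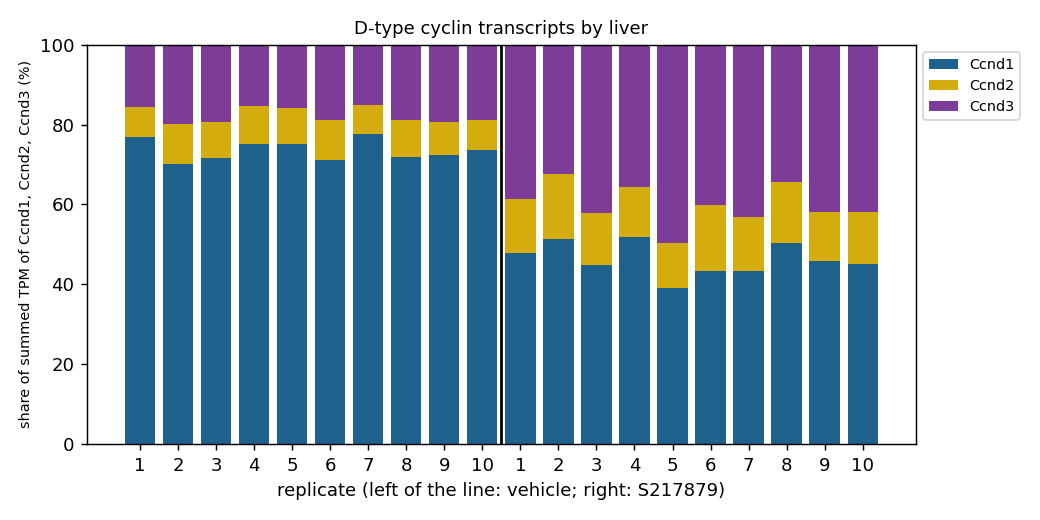
Share in percent of the summed TPM of Ccnd1, Ccnd2 and Ccnd3 held by each gene, a bar per liver, vehicle replicates 1 to 10 on the left and S217879 replicates 1 to 10 on the right. Ccnd1 lies between 70.1% and 77.6% in every vehicle liver and between 39.0% and 51.8% in every S217879 liver.

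The kinases that D-type cyclins switch on were not called. Cdk4 was 23.3 ± 3.94 TPM in vehicle livers and 19.3 ± 2.38 in treated livers (± SD, n = 10 each), a log2 difference of -0.26 (adjusted p = 0.0798). All 10 treated livers lay below the vehicle median, and after scaling Cdk4 was called lower by a difference of -0.10 (adjusted p = 0.0115). It shares 19.7% of its exon bases with Tspan31 on the opposite strand, a gene at 206 TPM in vehicle and 154 in S217879 (adjusted p = 0.0238). Cdk6 was 7.31 ± 0.80 TPM in vehicle against 6.16 ± 0.95 under S217879 (SD, n = 10 each; log2 difference -0.24, adjusted p = 0.0774).

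At the step from G1 into DNA synthesis 1 gene of 4 was lower, where 23.5% of all genes tested were lower. Cdk2, whose kinase works with cyclins E and A, ran from 6.45 through a median of 11.2 to 12.9 TPM in vehicle and from 5.63 through 6.60 to 9.96 in S217879. The highest treated liver was below 8 of the 10 vehicle livers, and the log2 difference was -0.56 ± 0.12 (SE; adjusted p = 0.000332). Its partners Ccne1 and Ccne2, for cyclins E1 and E2, were 1.82 ± 0.59 and 1.58 ± 0.37 TPM in vehicle against 1.42 ± 0.33 and 1.22 ± 0.36 in S217879 (SD, n = 10 each; adjusted p = 0.15 and 0.0759). E2f1, a transcription factor that activates S-phase genes, was 5.17 ± 1.25 TPM in vehicle and 4.59 ± 0.71 in S217879 (10 livers per group, ± SD), a difference of -0.14 that was not called (adjusted p = 0.399) and became 0.01 after scaling.

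Of the 3 CDK inhibitors 2 were lower, against 23.5% of all genes tested. Cdkn1a (chr17:29090976-29100727, plus strand) encodes p21, which p53 induces after DNA damage. It ran from 14.6 through a median of 19.4 to 31.4 TPM in vehicle and from 5.73 through 9.35 to 17.1 in S217879. Of the 10 treated livers 9 were below the lowest vehicle liver, and the means of 20.5 ± 4.65 and 9.95 ± 3.30 TPM differed by -1.04 ± 0.15 on the log2 scale (SE; adjusted p = 2.31e-06). After scaling the difference was -0.89. Cdkn1b, encoding p27, was 14.4 ± 2.87 TPM in vehicle livers and 11.3 ± 1.67 in treated livers (± SD, n = 10 each), and it was called lower by a narrow margin (log2 difference -0.31, adjusted p = 0.0415). That call was lost in 19 of 33 alternative settings, with adjusted p up to 0.0875. Cdkn2c, for the CDK4 and CDK6 inhibitor p18, was 7.14 ± 1.26 TPM in vehicle and 5.62 ± 1.93 in S217879 and was not called (adjusted p = 0.0689).

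All 6 genes of the MCM2-7 ring, the helicase that is loaded at origins and unwinds DNA at the fork, were lower. The share over all genes tested was 23.5%. Mcm6 ran from 4.40 through a median of 6.69 to 11.2 TPM in vehicle and from 2.73 through 3.25 to 5.57 in S217879. Mcm5 ran from 3.10 through 5.04 to 8.95 TPM in vehicle and from 1.89 through 2.44 to 4.29 in S217879. In both genes 8 of 10 treated livers were below the lowest vehicle liver, the single highest treated value belonging to S217879 replicate 4. The log2 difference was -0.88 ± 0.13 for Mcm6 (SE; adjusted p = 2.31e-06) and -0.86 ± 0.15 for Mcm5 (SE; adjusted p = 7.95e-05).

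The other 4 subunits had smaller differences. Mcm3 was 6.74 ± 1.68 TPM in vehicle and 4.24 ± 0.78 in S217879 (log2 difference -0.59, adjusted p = 0.000183), and Mcm2 was 3.91 ± 1.05 and 2.55 ± 0.46 (-0.51, adjusted p = 0.000795). Mcm4 was 5.41 ± 1.26 and 3.79 ± 0.70 TPM (-0.45, adjusted p = 0.00305), and Mcm7 was 8.88 ± 1.77 and 6.37 ± 0.90 (-0.44, adjusted p = 0.00207). In each of these 4 genes all 10 treated livers were below the vehicle median. All 6 subunits were called lower after scaling too, where 22.7% of all genes were lower. Their scaled differences ran from -0.74 for Mcm6 to -0.29 for Mcm7.

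Pcna and Gmnn belong to the same stage but were not called. Pcna, the sliding clamp that holds polymerases on DNA, ran from 18.1 through a median of 29.9 to 40.4 TPM in vehicle and from 19.5 through 24.7 to 32.4 in S217879. The groups overlapped widely, and the log2 difference was -0.26 ± 0.12 (SE; adjusted p = 0.102). Gmnn, encoding geminin, which blocks a second round of licensing, was 11.8 ± 2.93 TPM in vehicle against 10.4 ± 2.15 under S217879 (SD, n = 10 each; adjusted p = 0.437), and its scaled difference rounded to 0.00. Whether either differs from the MCM genes was not tested.

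Of the 3 genes for nucleotide supply 1 was lower, where 23.5% of all genes tested were lower. Rrm1, the large subunit of ribonucleotide reductase, was 3.03 ± 0.66 TPM in vehicle and 1.96 ± 0.36 in S217879 (10 livers per group, ± SD), a log2 difference of -0.51 ± 0.11 (SE; adjusted p = 0.00046) with all 10 treated livers below the vehicle median. Rrm2, the small subunit, was 6.48 ± 1.93 and 5.06 ± 1.90 TPM and was not called (-0.33, adjusted p = 0.155). In S217879 replicate 4 it stood at 9.98 TPM, above every vehicle liver, while the next treated liver was at 5.89. Tyms, thymidylate synthase, was 2.04 ± 0.37 and 1.71 ± 0.31 TPM and was not called either (-0.20, adjusted p = 0.15).

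All 4 genes for entry into mitosis were lower, Ccnb1 in the fit with the lower minimum. Among all genes 23.5% were lower at 1 TPM, and 22.0% with the lower minimum. Ccnb2, encoding cyclin B2, ran from 2.52 through a median of 3.24 to 4.72 TPM in vehicle and from 1.11 through 1.67 to 2.88 in S217879. Cdk1, the kinase it activates, ran from 1.37 through 1.90 to 2.45 in vehicle and from 0.88 through 1.03 to 1.92 in S217879. Of the 10 treated livers 8 were below the lowest vehicle liver in Ccnb2 and 9 in Cdk1, where S217879 replicate 4 was the exception at 1.92 TPM and the next treated liver was at 1.12. The log2 difference was -0.74 ± 0.13 for Ccnb2 (SE; adjusted p = 1.73e-05) and -0.57 ± 0.11 for Cdk1 (SE; adjusted p = 5.75e-05). Ccna2, for cyclin A2, was 1.46 ± 0.32 and 0.93 ± 0.29 TPM (-0.47, adjusted p = 0.00148). Ccnb1, for cyclin B1, was 0.94 ± 0.23 and 0.52 ± 0.22 TPM, and in the fit with the lower minimum its difference was -0.50 (adjusted p = 0.00223).

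Among 9 genes of mitosis and proliferation 7 were lower, 2 of them in the fit with the lower minimum. At 1 TPM these were 5 of 7 tested, where 23.5% of all genes were lower. With the lower minimum they were 2 of 2, where 22.0% of all genes were lower. Mki67, whose product Ki-67 coats mitotic chromosomes and is the usual marker of dividing cells, ran from 1.76 through a median of 2.58 to 3.35 TPM in vehicle and from 0.95 through 1.43 to 2.35 in S217879. Of the treated livers 8 were below the lowest vehicle liver, and the log2 difference was -0.65 ± 0.11 (SE; adjusted p = 1.81e-05). Top2a, topoisomerase II alpha, which untangles sister chromatids, was 1.72 ± 0.38 TPM in vehicle and 1.02 ± 0.27 in S217879 (-0.55, adjusted p = 0.000208). Cdc20, an activator of the anaphase-promoting complex, was 4.01 ± 1.27 and 2.20 ± 0.67 TPM (-0.74, adjusted p = 0.000673). Ube2c, which supplies ubiquitin to the same complex, was 1.54 ± 0.34 and 1.02 ± 0.32 TPM (-0.44, adjusted p = 0.00335). Stmn1, encoding the microtubule destabiliser stathmin, was 11.9 ± 2.27 and 7.51 ± 1.54 TPM (-0.63, adjusted p = 6.89e-05), with all 10 treated livers below the vehicle median.

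Of the remaining 4 genes of this group, Aurkb and Bub1 were lower and Aurka and Birc5 were not called. Aurkb, the kinase of the chromosomal passenger complex, was 1.27 ± 0.22 TPM in vehicle and 0.72 ± 0.22 in S217879, a difference of -0.55 with the lower minimum (adjusted p = 0.000362). Bub1, a spindle checkpoint kinase, was 0.44 ± 0.09 and 0.28 ± 0.08 TPM (-0.28, adjusted p = 0.00595), and with quantile normalization it was not called (adjusted p = 0.0689). Aurka, the kinase of the spindle poles, was 2.60 ± 0.61 and 2.21 ± 0.38 TPM (-0.18, adjusted p = 0.232), and Birc5, which encodes survivin, a partner of aurora B, was 1.58 ± 0.30 and 1.35 ± 0.30 TPM (-0.17, adjusted p = 0.234). Both turned slightly positive with quantile normalization, and no test of the difference between Aurka and Aurkb was made.

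Other genes of the same pathways, listed by function, gave the following counts. Of all genes tested at 1 TPM, 23.5% were lower and 6.07% higher as deposited, and 22.7% and 30.8% after scaling. With the minimum of 0.1 TPM, 22.0% were lower and 4.69% higher as deposited. Of 22 further replication genes 18 were tested at 1 TPM, where 8 were lower and the other 10 not called, with a median log2 difference of -0.23, and the 4 low ones were all lower. The largest falls were in Uhrf1, which guides maintenance methylation at the fork, at 2.74 ± 1.02 TPM in vehicle and 1.09 ± 0.29 in S217879 (log2 difference -0.98, adjusted p = 1.08e-05), and in the licensing factor Cdt1, at 4.23 ± 0.93 and 2.38 ± 0.56 TPM (-0.72, adjusted p = 1.19e-05). Of 30 further mitotic genes 16 were tested, with 13 lower, 1 higher and a median of -0.38, and 13 of the 14 low ones were lower. After scaling the replication genes gave 8 lower and 1 higher, and the mitotic genes 12 lower and 1 higher with 10 of the 14 low ones lower. The lower mitotic genes included the phosphatase gene Cdkn3 (-0.69) and the mitotic kinase gene Plk1 (-0.57), while Cks1b, a small subunit that docks on CDKs, was higher at 6.78 ± 1.79 TPM in vehicle and 8.79 ± 1.40 in S217879 (0.38, adjusted p = 0.0169).

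Among 16 pocket proteins, other E2F factors and other inhibitors, 13 were tested, with 4 lower, 1 higher and a median of -0.05, and none of the 3 low ones was called. Of all genes tested, 23.5% were lower and 6.07% higher. After scaling 4 of the 13 were lower and 5 higher, with a median of 0.08. The shares of all genes were then 22.7% lower and 30.8% higher. E2f8, a repressor of the E2F family, ran from 1.51 through a median of 2.10 to 4.91 TPM in vehicle. In S217879 it ran from 0.37 through 0.61 to 1.36, with no overlap between groups (-1.42, adjusted p = 3.09e-05). Groups did not overlap in 1.89% of all genes tested in the lower direction and 1.84% in the higher. Rbl1, encoding the pocket protein p107, was also lower (-0.59). Cdkn1c, encoding the inhibitor p57, moved the opposite way from Cdkn1a, from 2.28 ± 0.72 TPM in vehicle to 4.90 ± 0.82 in S217879 (SD, n = 10 each; 0.99, adjusted p = 1.53e-07), and all 10 treated livers were above every vehicle liver. Of 19 p53 targets 18 were tested, with 12 lower, 1 higher and a median of -0.43, and the 1 low gene was lower. Phlda3 (-1.13, adjusted p = 9.35e-10) and the antiproliferative gene Btg2 (-1.13, adjusted p = 2.10e-09) had the largest falls, also with no overlap between groups. The stress gene Sesn2 was higher (0.51, adjusted p = 0.000601), and its groups overlapped.

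Livers within a group also differed in the set as a whole. After scaling, vehicle replicate 1 held the highest vehicle value of 12 of the 36 members and vehicle replicate 8 the lowest of 23. In the treated group, replicate 4 held the highest value of 27 members as deposited and of 16 after scaling. That library also had the lowest rRNA-type share of its group, 14.1%, and the largest scale factor, 1.15, so its typical gene was high as deposited. Its summed marker levels as deposited were the highest of its group for macrophages (620 TPM), stellate cells (328), endothelial cells (80.1) and neutrophils with myeloid precursors (17.7). They were not the highest for hepatocytes (47880 TPM), T, NK, B and plasma cells (21.8), erythroid cells (762) or cholangiocytes (238). These sums were not scaled, so they do not show that the liver held more of these cells. The part of these in its values was not tested. Without it 24 of the 33 members were lower and 0 higher, where 26.5% of all genes were lower and 5.49% higher.

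**Figure D4:**
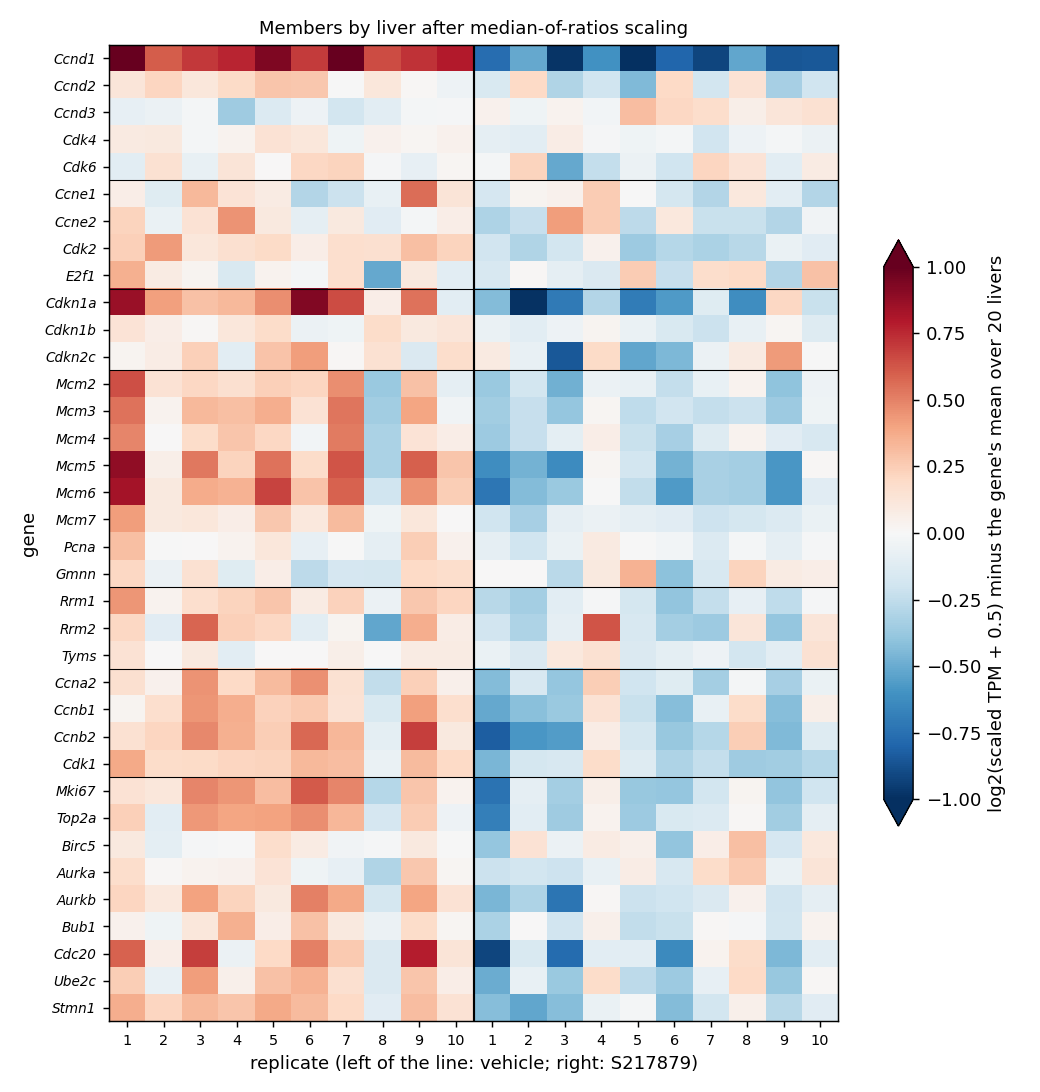
Each member in each liver as log2(scaled TPM + 0.5) minus the gene's mean over the 20 livers, after median-of-ratios scaling, with vehicle left and S217879 right of the line and rows grouped by role; red is above and blue below the mean. Vehicle replicate 8 is blue in most rows, as it held the lowest vehicle value of 23 members, and the Ccnd1 row is red in all 10 vehicle livers and blue in all 10 treated livers.

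Pairs of members were correlated across the livers of each group, namely Mki67 with Top2a, Mcm2 with Mcm5, and the inhibitor gene Cdkn1a with Ccnd1. Scaled Mki67 and Top2a had a Pearson r of 0.90 (Spearman rho 0.94) in vehicle and 0.94 (rho 0.87) in S217879, each with an adjusted permutation p of 3.00e-04 for r (100000 resamples, two-sided, adjusted over 6 relations; p for rho 0.00132 and 0.0038). Without the 2 livers farthest from the median of Mki67, r was 0.85 and 0.83. Scaled Mcm2 and Mcm5 had an r of 0.89 (rho 0.88) in vehicle and 0.80 (rho 0.85) in S217879, with adjusted permutation p of 0.00158 and 0.0107 for r, and 0.0038 and 0.00421 for rho. Without the 2 farthest livers r was 0.60 and 0.71. For Cdkn1a and Ccnd1 no relation was found in vehicle (r = 0.40, rho = 0.30, adjusted permutation p = 0.295 and 0.489) or in S217879 (r = -0.22, rho = -0.18, adjusted permutation p = 0.543 and 0.632). Without the 2 farthest livers these were 0.79 and 0.18, so the vehicle value rests on which livers are included.

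**Figure D5:**
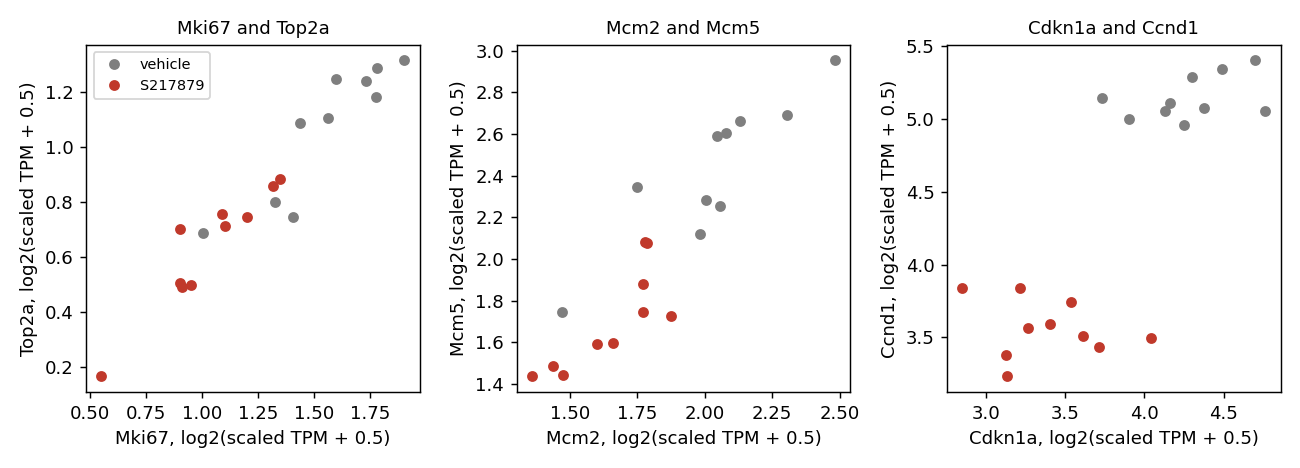
Pairs of members across livers, each axis log2(scaled TPM + 0.5), with a point per liver and 10 livers per group (grey vehicle, red S217879). Mki67 with Top2a and Mcm2 with Mcm5 rise together within each group, whereas Cdkn1a with Ccnd1 forms 2 separate clouds with an r of 0.40 in vehicle and -0.22 in S217879.

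Markers of the cells that a fibrotic, inflamed liver holds moved as well, and their part in the results above was not tested. Of all genes tested, 23.5% were lower and 6.07% higher as deposited, and 22.7% and 30.8% after scaling. Of 10 macrophage markers 5 were lower and 5 not called, the summed level running from 348.6 to 772.8 TPM in vehicle and from 306.6 to 619.8 in S217879. All 6 stellate cell markers were lower, with sums from 214 to 393 and from 173 to 328 TPM, and after scaling 5 of the 6 were, Acta2 being the exception (adjusted p = 0.0491 as deposited and 0.232 scaled). Of 5 cholangiocyte markers 4 were tested, with Epcam and Spp1 lower and Krt19 and Sox9 not called. Krt7, read with the lower minimum, was not called either (adjusted p = 0.17). The sums ran from 178 to 466 and from 89.3 to 243 TPM. Most of each sum was Spp1, with a mean of 286 TPM in vehicle and 144 in S217879. Of 4 endothelial markers 2 were higher and 2 not called, with sums from 34.3 to 67.1 and from 59.8 to 80.1 TPM, and after scaling 3 were higher. None of the 7 tested T, NK, B and plasma cell markers was called (sums from 13.7 to 74.2 and from 9.53 to 27.9 TPM), nor any of the 5 tested erythroid markers (sums from 190 to 369 and from 211 to 904 TPM). At an unadjusted limma p under 0.05 these counts were 0 and 1, and the exact Wilcoxon test called 0 in both lists; after scaling 2 erythroid markers were higher. Of 6 neutrophil and myeloid precursor markers 2 were tested at 1 TPM and not called, and Ly6g and Mpo were near 0 (sums from 4.15 to 20.2 and from 3.64 to 17.7 TPM). With the lower minimum Retnlg was lower as deposited (log2 difference -0.44, adjusted p = 0.0302) but not after scaling (adjusted p = 0.0559). Elane was at 0.50 ± 0.21 TPM in vehicle and 0.77 ± 0.38 with treatment, not called as deposited (0.31, adjusted p = 0.117) and higher after scaling (adjusted p = 0.0205). Of 7 hepatocyte markers Ttr was higher, Apoa1 and Ass1 were lower, and Alb was not called.

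Several members share sequence with other genes, which can affect how reads were assigned. Exons of 14 of the 36 overlap another gene in the GENCODE M21 annotation of GRCm38, 12 of them on the opposite strand. Besides those given above, Ube2c shares 22.8% of its exon bases with Tnnc2, which stood near 0 TPM, Ccne2 shares 17.4% with Ints8 and Ccna2 shares 12.5% with Exosc9, and neither Ints8 (adjusted p = 0.701) nor Exosc9 (adjusted p = 0.745) was called. For 6 members, Ccnd3, Pcna, Tyms, Ccnb1, Ccnb2 and Stmn1, the annotation names a pseudogene or related sequence, so their values are less certain.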

How the data were processed

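RNA from 20 livers was extracted with a kit for lipid tissue and sequenced from stranded, poly(A)-captured libraries, per the labels' protocols. The submitters' processing notes name the build GRCm38 and the tools STAR 2.5.2b, Trimmomatic 0.36, Subread 1.5.2 and featureCounts; no source used here gives their settings, the annotation or the use of strand. The deposited values are TPM made by the authors for 49315 genes, of which 48970 were given a symbol; each library sums to 1000000, so depth is unknown. Columns were matched to samples by the animal number in the labels, and 0 columns were left unmapped. No pair of libraries was identical (0 pairs). Groups followed the treatment label.

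Values were taken as log2(TPM + 0.5), a scale that understates changes of low genes. They were fitted with limma 3.58.1 in R 4.3.3 (trend and robust, group only, all 20 libraries) for 13401 genes that averaged 1 TPM or more, or 21416 at 0.1 TPM for low members, with Benjamini-Hochberg adjustment over all genes tested. The script was checked on simulated data. All 36 members are named; of each further list, the called genes with the largest differences in each direction (at most 2 each). The members, lists and tests were chosen with earlier results of these data known, so counts over them are descriptions. Alternatives changed the pseudocount, minimum, scaling, weighting, test and libraries used.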

Additional observations from a re-analysis of the deposited data

Results flagged for a closer look

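In 72 groups of 10 values (36 members in each treatment group), 7 held a liver whose distance to its nearest neighbour exceeded Dixon's 95% critical value, given as a share of the group's range; chance alone marks about 1 in 20 groups. S217879 replicate 4 was the highest treated liver in 4 of these: Rrm2 at 9.98 TPM (next 5.89), Cdk1 at 1.92 (next 1.12), Ccna2 at 1.65 (next 1.08) and Ccne1 at 2.22 (next 1.64). Vehicle replicate 1 was the highest vehicle liver for Cdkn1a at 31.4 TPM (next 23.2) and for Mcm2 at 6.28 TPM (next 4.45). S217879 replicate 3 was the lowest treated liver for Cdk6 at 3.85 TPM (next 5.47).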

How the results depend on the processing

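Of the 23 members called lower, 21 kept their call in every one of the alternatives run for them; the exceptions were Cdkn1b and Bub1. All 13 members not called passed in at least 1 alternative, so an uncalled member here is not shown to be unchanged. The count of 20 lower members became 10 with a minimum of 5 TPM, where members averaging below 5 TPM were no longer tested. No called member still tested lost its call there, and Cdkn2c and Rrm2 passed. The numbers of members and of genes tested at that minimum are not given here, so this count cannot be read as a share. The count became 32 after rescaling without the rRNA-type genes (64.0% of all genes lower). It was 31 with array weights (8023 of 13401 genes lower) and 31 without vehicle replicates 6 and 7 (54.5% of all genes lower). With each liver left out in turn the count of lower members ran from 19 to 27, and the members higher stayed at 0. It reached 27 without vehicle replicate 6, where 5195 of 13401 genes were lower. Without vehicle replicate 7 the lower members numbered 25, where 3949 genes were lower. Members higher numbered 1 with median-of-ratios scaling, with quantile normalization, and without vehicle replicates 6 and 7 with scaling, the last chosen after seeing the data. Over all genes, 4123, 3536 and 3593 were higher in those 3 settings in place of 813. The 3151 lower genes became 1642 with a minimum of 5 TPM, 8576 after rescaling, 8023 with array weights and 7303 without vehicle replicates 6 and 7. With each liver left out, genes lower ran from 2656 to 5195, the highest without vehicle replicate 6, and genes higher from 707 to 875. Directions turned only for uncalled members: Ccnd3 to -0.080 after rescaling, -0.062 with array weights and -0.056 without vehicle replicates 6 and 7; E2f1 to 0.0064 with scaling, 0.042 with quantile normalization and 0.026 without those livers with scaling; Birc5 to 0.022 and Aurka to 0.010 with quantile normalization. On the deposited scale Cdkn1a with Ccnd1 in S217879 had r = 0.32 in place of -0.22. The causes were not tested. No paired analysis was possible because the animals of the 2 groups share no number in the labels. Depth is unknown, so what it limits cannot be stated.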
